A study of Mus musculus with 6 samples.

Results

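Fatty acid binding proteins are small cytosolic carriers that keep long-chain fatty acids soluble and pass them to membranes, enzymes and nuclear receptors. Fatty acids reach the cytosol by diffusion and with the help of membrane proteins, among them CD36, a scavenger receptor that binds long-chain fatty acids, and the SLC27 family, which couples uptake to activation by coenzyme A. In liver the hepatocyte carrier is FABP1, while other members of the family mark macrophages, capillary endothelium, fat, muscle, gut or glia. Several of these genes are textbook targets of the PPAR nuclear receptors, which sense fatty acids.

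The genes described are 9 of the 55536 in the deposited table: the binding protein genes Fabp1, Fabp2, Fabp3, Fabp4, Fabp5 and Fabp7, the receptor gene Cd36 and the transport protein genes Slc27a1 and Slc27a4. They were chosen by gene name. The samples were 6 livers of male C57BL/6 mice, 3 Sirt5+/+ and 3 Sirt5-/-, the latter without the mitochondrial deacylase SIRT5. Both genotypes had been injected hydrodynamically, at 4 weeks of age, with 50 µg of a piggyBac-type plasmid for myc-tagged YAP5SA (an active YAP, from the CMV promoter) and 10 µg of a plasmid for the PBase transposase, and were sampled 20 days later. Each comparison below is therefore between genotypes in livers that had all received YAP5SA, and no liver without it was analysed here. The labels do not say whether the livers came from separate litters or days, and the p-values reflect only how these 6 libraries vary. By its title, the series asks how losing SIRT5 affects the formation of liver tumours by way of bile acids and immune cells.

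Library totals ran from 19307808 to 24330797 estimated counts. Mitochondrially encoded genes took 6.58 to 46.4% of the counts, with Sirt5+/+ replicate 3 (46.4%) and Sirt5-/- replicate 1 (40.8%) the richest of their genotypes. Levels are given as CPM, read counts brought to a common library size with TMM factors. A floor of 3 counts lay between 0.0827 and 0.393 CPM, depending on the library, and covers counting error only. Sirt5 itself stood at 16.7, 15.7 and 12.6 CPM in the Sirt5+/+ livers and at 0.497 to 1.2405 CPM in the Sirt5-/- livers, so each library matched its label. Of 14799 genes tested across the genotypes, 34.5% passed an adjusted p under 0.05 (edgeR quasi-likelihood test, Benjamini-Hochberg), 17.4% higher and 17.1% lower in Sirt5-/-.

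The region upstream of Fabp1 is shown beside those of Fabp2 and Slc27a4, the 3 genes with the lowest fitted changes. Sequences are from RefSeq on GRCm38.p6, plus strand, 5′ to 3′, and each ends before the first annotated transcript of its gene. Capitals mark a match to the half-site NGGNCA, 1 free base and the half-site AGGNCA in a row, searched on both strands. PPAR with RXR, and HNF4, bind spaced half-site pairs of this kind. The stretches are chr6:71199629-71199826, chr3:122894822-122895071 and chr2:29802384-29802633.
Fabp1: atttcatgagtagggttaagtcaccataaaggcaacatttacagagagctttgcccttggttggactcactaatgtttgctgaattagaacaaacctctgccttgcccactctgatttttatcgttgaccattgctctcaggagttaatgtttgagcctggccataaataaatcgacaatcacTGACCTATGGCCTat
Fabp2: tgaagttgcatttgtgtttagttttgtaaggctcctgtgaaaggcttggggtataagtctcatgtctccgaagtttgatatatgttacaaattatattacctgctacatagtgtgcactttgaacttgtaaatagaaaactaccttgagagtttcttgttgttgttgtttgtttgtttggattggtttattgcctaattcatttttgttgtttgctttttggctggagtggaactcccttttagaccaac
Slc27a4: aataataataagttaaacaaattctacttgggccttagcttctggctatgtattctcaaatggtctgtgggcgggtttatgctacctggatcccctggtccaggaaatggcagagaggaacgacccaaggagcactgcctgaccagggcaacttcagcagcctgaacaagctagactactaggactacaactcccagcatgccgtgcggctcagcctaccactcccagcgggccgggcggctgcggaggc
The match in Fabp1 lies at -67 to -55 from the RefSeq start, and its reverse strand reads AGGCCATAGGTCA. The motif occurs in 0.798% of 32851 mouse promoter windows (250 bases before to 50 after a start), which are longer than the stretches printed. Promoter windows were found for 7 of the 9 genes, and the Fabp1 window was the one of these with a match. The stricter form, with AGGTCA on both sides of the free base, held by 0.0396% of windows, was in none of the 7. The TEAD motif GGAATG, held by 14.7% of all windows, occurred in Slc27a1 at -212. Other motifs searched were TATAAA, in Fabp1 at -30 (13.6% of all windows), and GTTAAT, in Fabp1 at -107 (7.10%). TGTTTAC (3.65%) was in none of the 7. A match is a string of letters and was not tested for binding.

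Compared per length within each liver, Fabp1 was the most abundant of the 9 transcripts and Fabp5 and Fabp2 came next. On the deposited TPM scale, which divides by transcript length and by the library, Fabp1 stood at 10201, 12592 and 5109 in Sirt5+/+ replicates 1 to 3 and at 4778, 5454 and 4366 in Sirt5-/- replicates 1 to 3. It ranked between 13th and 31st of all genes in these livers. Fabp1 made up 98.0 to 99.5% of the summed TPM of the 6 binding protein genes. Fabp5 had 38.5 ± 23.8 TPM (SD, n = 3) in Sirt5+/+ and 41.6 ± 20.1 TPM in Sirt5-/-, and Fabp2 had 33.3 ± 24.8 and 13.6 ± 4.06 TPM. Below them, Fabp4 (6.72 ± 3.79), Slc27a4 (6.35 ± 5.07), Cd36 (5.73 ± 4.88), Fabp3 (3.19 ± 4.18), Slc27a1 (2.24 ± 1.37) and Fabp7 (1.39 ± 1.52 TPM, SD, n = 3) followed in Sirt5+/+. In Sirt5+/+ each neighbour in this order below Fabp1 overlapped the next within its SD. In Sirt5-/- the lower part of the order was Cd36 (10.98 ± 5.75), Fabp4 (10.7 ± 2.80), Fabp3 (5.27 ± 0.821), Slc27a1 (2.55 ± 1.41), Slc27a4 (2.04 ± 0.952) and Fabp7 (1.28 ± 0.362 TPM). There Fabp5 stood above Fabp2, Fabp4 above Fabp3 and Fabp3 above Slc27a1 by more than the SDs, and the other neighbours did not. These SDs are between livers and do not measure order within a liver. In each Sirt5+/+ liver Fabp2 stood above Fabp4 and Cd36 above Fabp3. In each Sirt5-/- liver Fabp2 stood above Cd36. TPM carry the mitochondrial share of a library and were used for order within livers, not for the test.

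Of the 9 genes, 2 fell in Sirt5-/- and none rose, against 17.1% of all tested genes lower and 17.4% higher. The genes that fell were Fabp2 and Slc27a4. All 9 passed the filter on low counts, and their median log2 change was -0.10, against -0.08 over all genes. At an unadjusted p under 0.05 there were 3 lower and 0 higher (edgeR), against 23.1% of all genes lower and 21.8% higher. DESeq2, limma-voom and the authors' deposited table each held 3 lower and 0 higher at an adjusted p under 0.05, the third gene being Fabp1. The genotypes did not overlap in CPM for Fabp1, Fabp2 and Slc27a4, each lower in Sirt5-/-, where 24.0% of all genes had that pattern. The share of all genes called in each of these analyses was 19.5% lower and 19.9% higher with DESeq2, 17.9% and 20.0% with limma-voom, and 19.4% and 20.0% in the authors' deposited table. With library totals 2.2% of genes and no member were lower. The share of genes lower was 16.4% with DESeq2 size factors, 13.2% with upper-quartile factors, 9.89% with no filter, 19.3% with the stricter filter, 11.3% with replicate number as a block and 7.98% at an adjusted p under 0.01. It was 15.7% with mitochondrial genes removed, 21.3% with their share as a covariate and 22.8% without both mitochondria-rich libraries. Without single livers it was 13.2, 11.4 and 23.4% for Sirt5+/+ replicates 1 to 3 and 11.3, 7.54 and 7.21% for Sirt5-/- replicates 1 to 3.

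**Figure D1:**
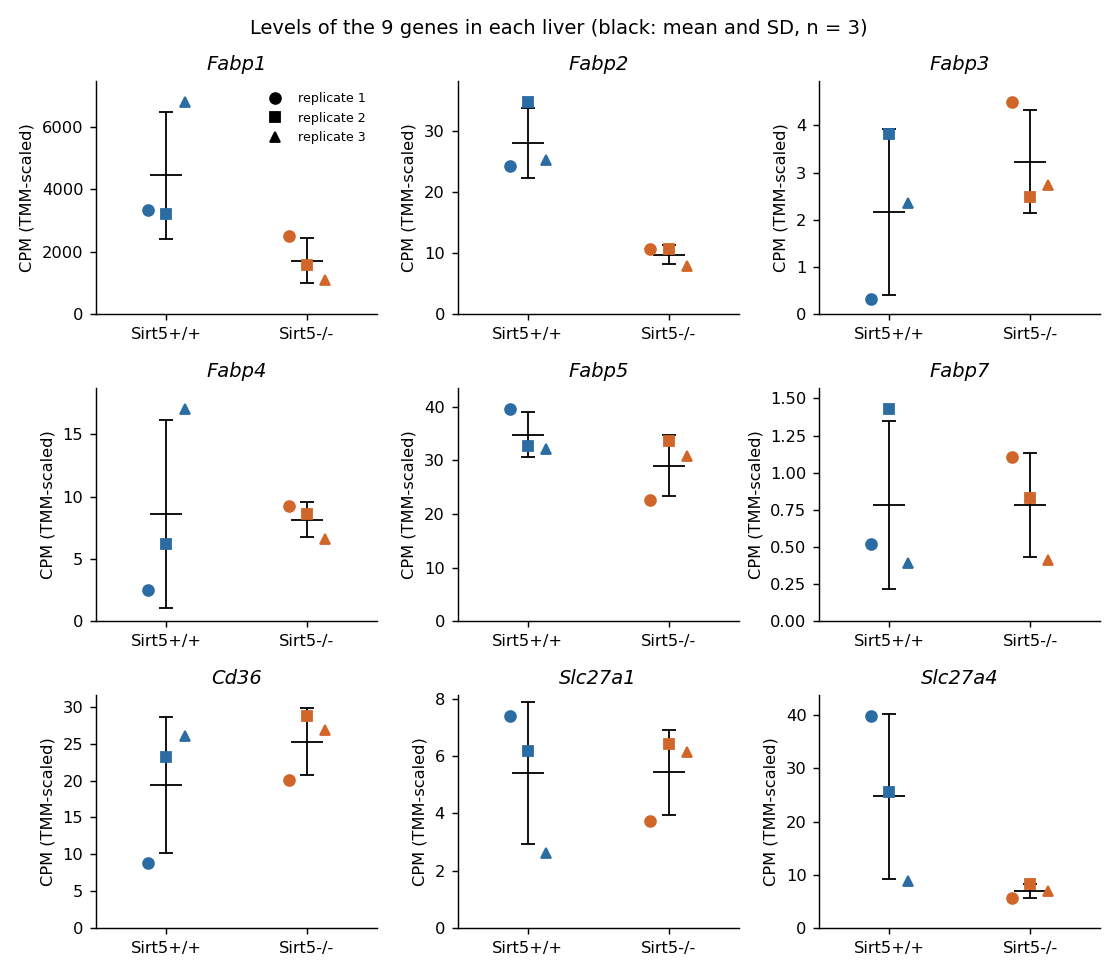
Levels of the 9 genes (y axis, CPM scaled by TMM, each panel starting at 0) in the 3 Sirt5+/+ livers (blue) and the 3 Sirt5-/- livers (orange), with symbols for the replicate and black bars for the mean and SD. Fabp1, Fabp2 and Slc27a4 show no overlap between genotypes on this scale but overlap in TPM. In Fabp4 the 3 Sirt5+/+ livers run from 2.51 to 17.03 CPM.

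Fabp1 encodes the liver carrier, one of the most abundant cytosolic proteins of hepatocytes. The gene (ENSMUSG00000054422, chromosome 6, 71199827 to 71205023, plus strand, GRCm38) had 3330, 3225 and 6788 CPM in Sirt5+/+ replicates 1 to 3 and 2502, 1570 and 1085 CPM in Sirt5-/- replicates 1 to 3. In TMM-scaled CPM every Sirt5-/- liver was below every Sirt5+/+ liver, while Sirt5+/+ replicate 3 stood well above the other 5. In TPM, Sirt5+/+ replicate 3 was the lowest of its genotype (5109) and lay below Sirt5-/- replicate 2 (5454). The separation therefore depends on the scaling. The fitted log2 change was -1.37 ± 0.55 (SE; 95% interval -2.62 to -0.12), with an unadjusted p of 0.0354 that missed the threshold after adjustment (adjusted p = 0.0861, edgeR). The call was made with DESeq2 (log2 change -1.35, adjusted p = 0.00649), limma-voom (-1.39, 0.0363) and the mitochondrial share as a covariate (-1.56, 0.00396). It was also made when Sirt5+/+ replicate 3 and Sirt5-/- replicate 1 were both left out (-1.25, 0.0289). The authors' deposited table gives -1.29 and an adjusted p of 0.00735. Without Sirt5+/+ replicate 3 the change was -0.87 (adjusted p = 0.133, edgeR), and with library totals -0.64 (0.570).

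Fabp2 encodes the intestinal carrier, which is also transcribed in liver. The gene (ENSMUSG00000023057, chromosome 3, 122895072 to 122899506, plus strand) had 24.2, 34.7 and 25.2 CPM in the Sirt5+/+ livers and 10.7, 10.6 and 7.95 CPM in the Sirt5-/- livers. In TMM-scaled CPM the highest Sirt5-/- liver was well below the lowest Sirt5+/+ liver, and livers of a genotype lay close together. In TPM, Sirt5+/+ replicate 3 had 8.88 and the Sirt5-/- livers 9.10, 17.0 and 14.7, so the separation depends on the scaling. The log2 change of Fabp2 was -1.52 ± 0.25 (SE), with an adjusted p of 0.00344 in edgeR and all 3 Sirt5-/- livers lower. Its mean fell from 28.0 ± 5.78 to 9.77 ± 1.57 CPM (SD, n = 3). The call was kept when each liver in turn was left out (log2 change -1.61 to -1.36) and was lost with library totals (-0.97, adjusted p = 0.368). Of 10 markers of gut epithelium, 5 were high enough to be tested, with 1 higher (the keratin gene Krt20, 33 counts over the Sirt5+/+ livers and 715 over the Sirt5-/- livers) and 1 lower. The summed level of the list was 95.8 to 172 CPM in Sirt5+/+ and 40.1 to 75.4 CPM in Sirt5-/-. Most of this sum was Apoa4, the lower marker and also a liver gene. Apoa4 had 169, 98.6 and 91.2 CPM in the Sirt5+/+ livers and 65.4, 44.1 and 27.7 CPM in the Sirt5-/- livers. The intestinal transcription factor genes Cdx1 and Cdx2 and the brush border enzyme gene Sis had no count in any liver, while the mucin gene Muc2 had 0 counts over Sirt5+/+ and 15 over Sirt5-/-. The part of gut-type cells in the level of Fabp2 was not tested. A transcript annotated antisense to Fabp2 overlaps it, and whether the counting used strand is not given in the sources used here.

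Slc27a4 encodes FATP4, a transport protein with acyl-CoA synthetase activity. The gene (ENSMUSG00000059316, chromosome 2, 29802634 to 29817522, plus strand) had 39.9, 25.5 and 8.78 CPM in Sirt5+/+ replicates 1 to 3 and 5.72, 8.33 and 6.90 CPM in the Sirt5-/- livers. The Sirt5-/- livers lay close together, and Sirt5+/+ replicate 3 lay just above them. In TPM, Sirt5+/+ replicate 3 lay below them, at 0.62 against 0.94, 2.65 and 2.52. The log2 change of Slc27a4 was -1.83 ± 0.48 (SE), with an adjusted p of 0.0199 in edgeR and all 3 Sirt5-/- livers lower. This call ended when any 1 liver other than Sirt5+/+ replicate 3 was left out (adjusted p from 0.0572 to 0.0795, log2 change -1.28 to -1.97). Without Sirt5+/+ replicate 3 the change was -2.17 (adjusted p = 0.000244), and with library totals -1.34 (adjusted p = 0.183).

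Slc27a1, which encodes the related FATP1 of muscle and fat, did not pass the test. The gene (ENSMUSG00000031808, chromosome 8, 71568882 to 71587302, plus strand) had 7.402, 6.18 and 2.62 CPM in the Sirt5+/+ livers and 3.73, 6.42 and 6.16 CPM in the Sirt5-/- livers, with overlap between genotypes. Its log2 change was -0.01, with a 95% interval from -0.95 to 0.93 (adjusted p = 0.988, edgeR), and the sign was positive in 11 of 18 other settings. Within a liver, where scaling between libraries plays no part, Slc27a4 had 5.39, 4.13 and 3.35 counts for each count of Slc27a1 in Sirt5+/+ replicates 1 to 3. In the Sirt5-/- livers the ratio was 1.53, 1.296 and 1.121. The genotypes did not overlap in this ratio of counts, which was taken after the values were seen and is given without a test. The share of all gene pairs with this pattern was not counted. As a ratio of TPM, which also uses the transcript lengths estimated for each library, the values were 3.37, 2.71 and 0.954 against 1.01, 0.808 and 0.730, and Sirt5+/+ replicate 3 overlapped the Sirt5-/- livers.

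Cd36 encodes the scavenger receptor and fatty acid receptor of macrophages, capillary endothelium and, in steatosis, hepatocytes. The gene (ENSMUSG00000002944, chromosome 5, 17781690 to 17888801, minus strand) had 8.87, 23.2 and 26.1 CPM in Sirt5+/+ replicates 1 to 3 and 20.1, 28.8 and 26.9 CPM in the Sirt5-/- livers. Sirt5+/+ replicate 1 was the lowest and the other 5 livers lay together. The log2 change was 0.39 ± 0.39 (SE; 95% interval -0.50 to 1.28; adjusted p = 0.471, edgeR). It stayed positive in the 18 other settings, from 0.06 without Sirt5+/+ replicate 1 to 1.17 with library totals (adjusted p = 0.257), and none of these passed (adjusted p from 0.110 to 0.861).

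Fabp4 encodes the carrier of adipocytes, macrophages and capillary endothelium. The gene (ENSMUSG00000062515, chromosome 3, 10204088 to 10208576, minus strand) had 2.51, 6.18 and 17.03 CPM in Sirt5+/+ replicates 1 to 3 and 9.27, 8.57 and 6.63 CPM in the Sirt5-/- livers. The Sirt5-/- livers lay inside the range of the Sirt5+/+ livers. The log2 change of -0.03 had a 95% interval from -1.37 to 1.31 (adjusted p = 0.972, edgeR) and turned positive in 10 of 18 other settings. Without Sirt5+/+ replicate 3 it was 0.95 (adjusted p = 0.0631). Of 10 adipocyte markers 4 were high enough to be tested, with 1 higher and 1 lower, and their summed level was 1338 to 2343 CPM in Sirt5+/+ and 231 to 440 CPM in Sirt5-/-, most of it from Car3, which hepatocytes also express. The adipokine gene Adipoq had 0 to 2 counts in each liver and the droplet protein gene Plin1 0 to 7.01. The leptin gene Lep had no count in Sirt5+/+ and 10, 18 and 19 counts in Sirt5-/-, and the adipsin gene Cfd had 5, 31 and 11 counts against 1, 0 and 3. The part of adipocytes in the level of Fabp4 was not tested.

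Fabp5 encodes the epidermal-type carrier, expressed widely and in macrophages. The gene (ENSMUSG00000027533, chromosome 3, 10012548 to 10016607, plus strand) had 39.6, 32.6 and 32.1 CPM in the Sirt5+/+ livers and 22.6, 33.5 and 30.8 CPM in the Sirt5-/- livers. Sirt5-/- replicate 1 was the lowest of the 6 livers and the rest lay within a narrow band. The log2 change was -0.26 ± 0.24 (SE; adjusted p = 0.435, edgeR), and its 95% interval of -0.81 to 0.29 was the narrowest of the 9 genes. Of the 31-base words of Fabp5 transcripts, 9.22% occur in other annotated genes, most in the pseudogene Gm6166, so its count is somewhat uncertain. Fabp4 and Fabp5 lie in a cluster of family genes on chromosome 3 (10012548 to 10301183). Of the other genes there, Pmp2 and Fabp9 had no count in any liver, and Fabp12 had 0 to 3.

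Fabp3 encodes the heart and muscle carrier. The gene (ENSMUSG00000028773, chromosome 4, 130308595 to 130315463, plus strand) had 7, 107 and 18 counts, or 0.332, 3.82 and 2.36 CPM, in Sirt5+/+ replicates 1 to 3. The Sirt5-/- livers had 4.49, 2.48 and 2.73 CPM, and the genotypes overlapped. The log2 change was 0.56 ± 0.71 (SE; 95% interval -1.07 to 2.19; adjusted p = 0.578, edgeR). Skeletal muscle transcripts stood out in the Sirt5+/+ liver with the most Fabp3. The creatine kinase gene Ckm had 858 counts and the myoglobin gene Mb 519 counts in Sirt5+/+ replicate 2, against 0 to 10 and 0 to 1 in the other 5 livers. The summed level of the 11 muscle and heart markers was 137 CPM in that liver and 0.807 to 3.51 CPM in the other 5. Without Sirt5+/+ replicate 2 the change of Fabp3 was 1.39 (adjusted p = 0.247, edgeR), and the part of muscle transcripts in its level was not tested. Fabp3 also shares 37.3% of its 31-base words with other genes, 35.2% with the pseudogene Fabp3-ps1, and overlaps Zcchc17 and Gm10570 on the other strand, so its count is uncertain.

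Fabp7, the brain-type carrier of radial glia, was close to the floor. The gene (ENSMUSG00000019874, chromosome 10, 57784881 to 57788450, plus strand) had 11, 40 and 3 counts in the Sirt5+/+ livers and 19, 30 and 15 counts in the Sirt5-/- livers. Its 95% interval ran from -1.57 to 1.38 on the log2 scale (adjusted p = 0.921, edgeR).

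**Figure D2:**
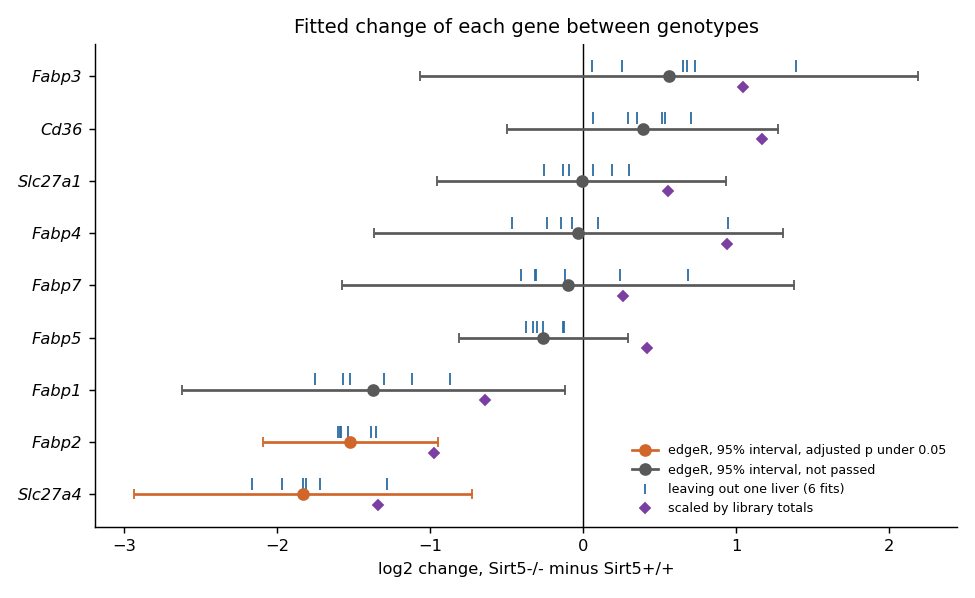
Fitted log2 change of each gene, Sirt5-/- minus Sirt5+/+ (x axis), with 95% intervals of the edgeR fit over all genes (orange where the adjusted p was under 0.05). Blue ticks are the 6 fits that leave out 1 liver each, and purple diamonds the fit scaled by library totals, where the median of all genes moved by 0.67; Fabp2 at -1.52 and Slc27a4 at -1.83 are the called genes.

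Hepatocyte markers moved with the genes that fell. Of 20 measured markers 14 fell and none rose, with a median log2 change of -1.85 against -0.08 over all genes. Their summed level was 116730 to 155410 CPM in Sirt5+/+ and 27531 to 51067 CPM in Sirt5-/-. The count of lower markers was 2 without Sirt5-/- replicate 2, 3 without Sirt5-/- replicate 3 and 2 with library totals. In bulk liver, fewer hepatocytes and less RNA per hepatocyte cannot be told apart. Each gene was therefore also taken relative to the mean log2 level of these 20 markers in the same liver. On that measure Fabp1 differed by 0.40 (exact two-sided permutation test, p = 0.5, adjusted p = 0.643 over 9 genes). Fabp2 differed by 0.26 (exact p = 0.7) and Slc27a4 by 0.19 (exact p = 0.8), with the genotypes overlapping in all 3 genes. The other 6 genes were higher relative to the markers in each Sirt5-/- liver than in any Sirt5+/+ liver. The differences were 1.49 for Fabp5, 1.86 for Slc27a1, 1.87 for Fabp7, 2.09 for Fabp4, 2.28 for Cd36 and 2.79 for Fabp3 (exact p = 0.1 and adjusted p = 0.15 for each gene). The marker mean itself was 11.9, 11.5 and 11.3 log2 CPM in Sirt5+/+ and 10.15, 9.88 and 9.42 in Sirt5-/-. A gene whose CPM did not change would therefore also be higher on this measure. The share of all genes with this pattern was not counted, so it is not read as a rise of these genes. With 3 livers a genotype 0.1 is the lowest p this exact test can return, so it cannot pass 0.05.

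**Figure D3:**
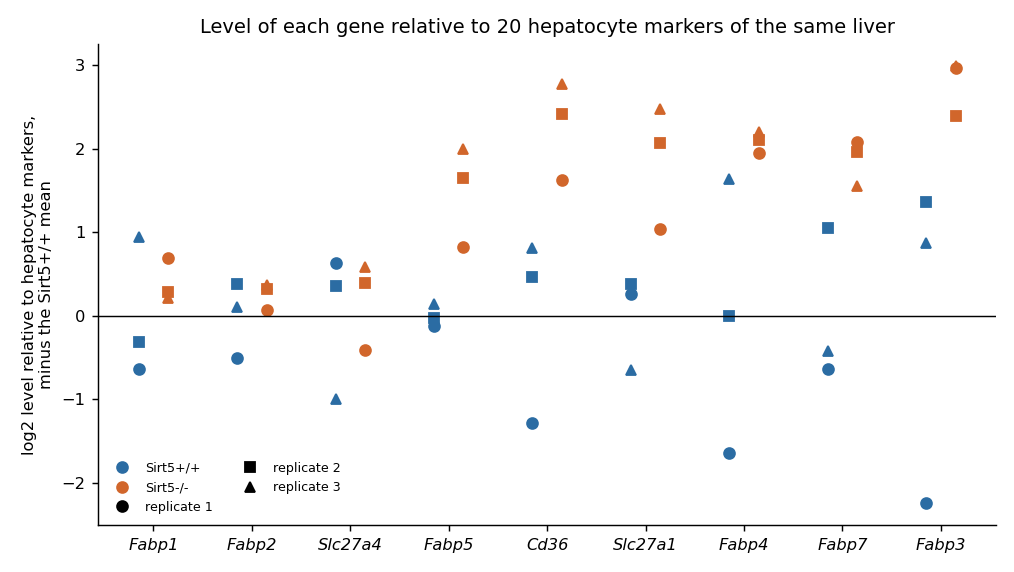
Log2 level of each gene relative to the mean of 20 hepatocyte markers in the same liver, shown minus the Sirt5+/+ mean (y axis), for Sirt5+/+ (blue) and Sirt5-/- livers (orange), with symbols for the replicate. Fabp1, Fabp2 and Slc27a4 overlap between genotypes, and in the other 6 genes the 3 Sirt5-/- livers lie above the 3 Sirt5+/+ livers. The marker mean itself was lower in each Sirt5-/- liver, so a gene with unchanged CPM would also lie higher here.

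Some ratios between the 9 genes within a liver separated the genotypes and others did not. They were taken after the values were seen and are given without a test. On the TPM scale Cd36 stood at 9.38, 19.4 and 31.2% of Fabp2 in Sirt5+/+ replicates 1 to 3 and at 47.8, 81.9 and 99.9% in Sirt5-/- replicates 1 to 3. Fabp5 stood at 158, 90.9 and 124% of Fabp2 in Sirt5+/+ and at 204, 303 and 373% in Sirt5-/-. Fabp4 was 0.0330 to 0.117% of Fabp1 in the Sirt5+/+ livers and 0.157 to 0.275% in the Sirt5-/- livers. The genotypes did not overlap in these 3 ratios, nor for Cd36 against Fabp1 and Slc27a4 against Cd36. Fabp1, Fabp2 and Slc27a4 were themselves lower in CPM in Sirt5-/-. A gene with unchanged CPM would therefore tend to separate from them in a ratio. The share of all gene pairs with this pattern was not counted, so it is not read as a result about these genes. The genotypes did overlap for Fabp4 against Fabp5. They did so too for Fabp2 against Fabp1, at 0.174 to 0.464% and 0.190 to 0.337%. They overlapped as well for Fabp5 against Fabp1, at 0.215 to 0.502% and 0.388 to 1.26%. Fabp1 against the albumin gene Alb was 32.2, 37.0 and 69.4% in Sirt5+/+ and 75.9, 64.4 and 62.6% in Sirt5-/-, where Sirt5+/+ replicate 3 lay with the Sirt5-/- livers.

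Markers of the other cell types that express Cd36, Fabp4 and Fabp5 did not all move one way. Of 15 macrophage and monocyte markers 12 rose and 1 fell, with a summed level of 697 to 718 CPM in Sirt5+/+ and 2644 to 5162 CPM in Sirt5-/-. Of 7 markers of resident Kupffer cells 3 fell and none rose, at 29.1 to 126 CPM against 17.9 to 23.5 CPM. Without Sirt5+/+ replicate 3 there were 5 lower and 1 higher, and with library totals 2 lower and 1 higher. Lipid-associated macrophage genes had 5 of 12 higher and none lower, and 9 higher and 1 lower without Sirt5+/+ replicate 3. Trem2 rose from 5.74 ± 2.68 to 28.0 ± 7.604 CPM (SD, n = 3). The summed level of this list ran the other way, at 15393 to 30712 CPM in Sirt5+/+ and 7865 to 9375 CPM in Sirt5-/-. Most of it was Apoe, a gene that hepatocytes also express (adjusted p = 0.0808, edgeR). Of 20 endothelial markers 2 rose and 6 fell, and their summed level was 367 to 515 CPM against 546 to 597 CPM (2 lower with library totals). The 2 that rose had the highest mean CPM of the list, and the higher sum rests on them. They were Stab1 (50.5 ± 16.9 to 149 ± 12.4 CPM) and Fcgr2b (51.6 ± 13.2 to 151 ± 26.3 CPM, SD, n = 3). The 6 that fell were Tek, Stab2, Lyve1, Clec4g, Oit3 (log2 change -3.33) and Gpr182 (-2.60). Stellate cell and fibroblast markers had 7 of 15 higher and 1 lower, at 465 to 770 CPM against 2365 to 2553 CPM. Bile duct markers had 3 of 12 higher and none lower, at 95.5 to 409 CPM against 760 to 841 CPM. The part of these cell types in the levels of the 9 genes was not tested. Proliferation markers (10 of 10 higher) and YAP target genes (15 of 15 higher) rose as well. The proliferation count fell to 4 without Sirt5-/- replicate 2 and to 3 without Sirt5-/- replicate 3.

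The hepatocyte members of the SLC27 family fell. Slc27a2, the very long-chain acyl-CoA synthetase, was at 612 ± 86.7 CPM in Sirt5+/+ and 110 ± 22.7 CPM in Sirt5-/- (SD, n = 3; log2 change -2.47 ± 0.33, SE; adjusted p = 0.00205, edgeR). Slc27a5, which activates bile acids and fatty acids, was at 479 ± 326 and 36.5 ± 7.92 CPM (adjusted p = 0.00359, edgeR). Slc27a6 rose from 6 counts over the 3 Sirt5+/+ livers to 132 over the 3 Sirt5-/- livers (adjusted p = 0.00727, edgeR), a low level in both. Slc27a3 did not pass (log2 change 0.38, adjusted p = 0.562). The same 1 higher and 2 lower were counted without any 1 liver. As a share of Slc27a2 in the same liver, on the TPM scale, Slc27a1 was 0.757 to 1.22% in Sirt5+/+ and 3.09 to 7.82% in Sirt5-/-.

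Of 15 tested acyl-CoA synthetase and acyl-CoA binding genes 9 fell and none rose (median -1.39). The long-chain synthetase gene Acsl1 fell from 660 ± 146 to 163 ± 66.4 CPM (SD, n = 3), and the medium-chain synthetase genes Acsm1 and Acsm5 fell by 2.33 and 1.92 on the log2 scale. Dbi, the acyl-CoA binding protein, fell by 1.38 ± 0.31 (SE; adjusted p = 0.0108, edgeR). The count of lower genes in this list was 4 without Sirt5-/- replicate 2 or replicate 3 and 1 with library totals, and 3 genes were higher without Sirt5+/+ replicate 3. Of 18 tested partners at the membrane and vessel wall 6 fell and 3 rose (median -0.80). Got2, the mitochondrial aminotransferase also described as a plasma membrane fatty acid binding protein, fell from 429 ± 256 to 95.1 ± 11.6 CPM. The hepatic lipase gene Lipc fell by 2.15 and the lipase inhibitor gene Angptl4 by 2.12 on the log2 scale. The genes that rose encode caveolae proteins: Cavin1 (17.6 ± 2.79 to 83.6 ± 11.9 CPM), Cav1 (31.3 ± 23.5 to 258 ± 24.6 CPM) and Cav2. In this list 3 genes were lower without Sirt5-/- replicate 2 or replicate 3, and 0 with library totals, where 4 were higher. Lpl, lipoprotein lipase, was at 27.7, 58.6 and 116 CPM in Sirt5+/+ and 112, 187 and 220 CPM in Sirt5-/- (adjusted p = 0.0728, edgeR), and passed with DESeq2 (log2 change 1.38, adjusted p = 0.0166) and limma-voom (1.496, 0.0490). Without Sirt5+/+ replicate 3 its log2 change was 2.06 (adjusted p = 0.00312).

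None of the 3 PPAR receptor genes passed the test, while most of the tested PPARalpha targets fell. Ppara, the receptor of hepatocyte fatty acid oxidation, was at 19.5, 27.1 and 81.9 CPM in Sirt5+/+ and 26.5, 11.2 and 5.44 CPM in Sirt5-/- (log2 change -1.57, adjusted p = 0.108, edgeR; 0.0422 with DESeq2). Ppard differed by 0.64 (adjusted p = 0.0947) and Pparg by 0.03 (adjusted p = 0.946). Of 21 receptors and liver factors tested 12 fell and none rose (median -1.45), among them Hnf4a, the master factor of hepatocyte genes, by 1.88 ± 0.32 (SE), and Foxa3 by 2.81. The count lower was 7 without Sirt5-/- replicate 3 and 4 with library totals. Of 21 tested PPARalpha targets 17 fell and 2 rose (median -1.84). The median of the hepatocyte markers was about the same (-1.85), and the targets were not taken relative to those markers. The peroxisomal gene Pex11a fell by 2.21, the liver factor gene Creb3l3 by 2.35 and the omega-hydroxylase gene Cyp4a14 by 3.85 on the log2 scale. The targets that rose were the pantetheinase gene Vnn1, from 18.7 ± 12.5 to 70.5 ± 13.6 CPM (SD, n = 3), and the thioesterase gene Acot2. The count lower was 5 with library totals. Of 12 tested PPARgamma and lipid droplet genes 8 fell and none rose (median -1.53), including the droplet coat genes Plin5 and Plin4 by 3.47 and 3.04 and the droplet assembly gene Fitm2 by 1.61. This count was 5 without Sirt5-/- replicate 2 or 3 and 2 with library totals. In the annotation of the deposited table all 9 genes described here carry the KEGG term for PPAR signalling. Of 72 tested genes with that term, these 9 among them, 39 were lower and 5 higher (median -1.48). Over all tested genes 17.1% were lower and 17.4% higher. Genes of the lists above were not taken out of the 72, so it is not a separate count.

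**Figure D4:**
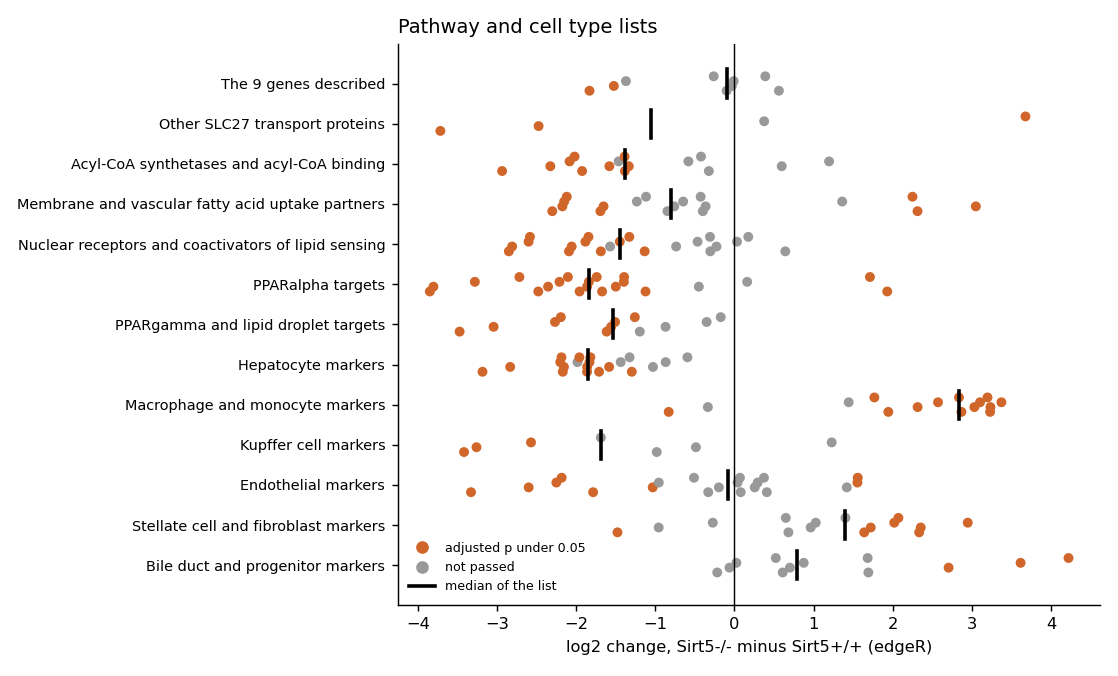
Log2 change of each tested gene (x axis, edgeR fit over all genes, Sirt5-/- minus Sirt5+/+) in the lists named on the y axis, orange where the adjusted p was under 0.05, with black bars for the median of each list. The 9 genes described have a median of -0.10, hepatocyte markers -1.85, and macrophage and monocyte markers 2.84.

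The genes closest in profile over the 6 livers differed from member to member. Pearson's r of log2 CPM over the 6 livers is given as a description, since these points share their libraries and scaling. Among the closest to Fabp1 were Nr1h4, the bile acid receptor FXR (r = 0.994), and Map3k5 (0.994). Closest to Fabp2 were Dsc2 (0.996), Nqo2 (0.995) and Idi1 (0.995), and closest to Slc27a4 were Dnpep (0.998), Ttc7 (0.997) and Spr (0.997). For Cd36 they were Fgfr1op2 (0.989), Slc5a3 (0.986) and Smchd1 (0.985), for Fabp4 Upf3b, Golga7 and Zfp266 (each 0.994), and for Fabp5 Taf8 (0.984), Ube2e3 (0.976) and Siah2 (0.963). The genes closest to Slc27a1 were Eif2b3 (0.996), Plekhb2 (0.995) and Midn (0.993). Those for Fabp3 were Zfp317 (0.995), Tiparp (0.985) and Pdzd8 (0.984), and for Fabp7 Arid1b (0.988), Fbln5 (0.981) and Sned1 (0.975). Among the members, the positive r above 0.7 were Cd36 with Fabp3 (0.84) and Fabp4 (0.80), Fabp1 with Fabp2 (0.80), Slc27a4 with Fabp2 (0.75) and Fabp5 (0.73), and Fabp3 with Fabp4 (0.71). The negative r below -0.7 were Slc27a1 with Fabp4 (-0.83), Fabp5 with Fabp3 (-0.75), and Slc27a4 with Fabp4 (-0.75) and Cd36 (-0.72). Slc27a4 had r = 0.54 with Slc27a1.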

How the data were processed

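The authors deposited 1 table for 6 liver RNA-seq libraries. HISAT2 2.1.0, RSEM 1.3.1 and DESeq2 1.24.0 were used per the submitters' processing notes; their roles, options and the genome build are not given in the sources used here. Expected counts (estimated reads per gene, 8.49% of values not whole) and TPM were used as deposited by the authors. The log2 fold changes and p-values deposited by the authors are quoted as theirs. Identifiers and names match GENCODE M21, so coordinates are on GRCm38; promoter sequences are from RefSeq, GRCm38.p6.

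Counts were rounded, filtered (filterByExpr, minimum count 10, total 15), TMM-scaled (factors 0.396 to 1.68) and tested with edgeR 4.0.16 (quasi-likelihood F test, genotype only, two-sided, Benjamini-Hochberg over 14799 genes, threshold 0.05). The fit was also run on simulated data with few changed genes, balanced up and down. That simulation does not cover a contrast in which 34.5% of genes are called, and nothing is concluded from it. Standard errors were obtained from the F statistics. CPM relative to hepatocyte markers used a prior count of 2. DESeq2 1.42.0, limma-voom 3.58.1, other scalings and filters, mitochondrial adjustments, a replicate block and leaving out livers were alternatives. List counts were repeated without single livers after seeing the data.

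Members and lists were chosen with earlier results of these data known. The named genes are Sirt5, the members, up to 3 genes with the smallest p of each pathway list and the 3 closest profiles per member (mean of at least 5 CPM); marker lists are given mainly as counts and summed levels. Got2, Dbi, Cav1, Cav2, Lpl, the 3 PPAR genes, Slc27a3, Vnn1, Acot2 and low-count genes were named after their values were seen, as were Ckm, Mb, Krt20, Apoa4, Car3, Trem2, Apoe, Stab1 and Fcgr2b. So were the endothelial markers that fell. Some results under these rules are not reported here.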

Additional observations from a re-analysis of the deposited data

How the results depend on the processing

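The count of lower members was 2; it was 0 with library totals, 1 with the replicate block, 1 at an adjusted p under 0.01, and 1 to 2 without single livers. Fabp2 kept its call in 17 of 18 alternatives and Slc27a4 in 11. Library totals moved the median change of all genes by 0.67, upper-quartile factors by 0.18, no filter by 0.17, leaving out Sirt5+/+ replicate 3 by 0.16 and leaving out both richest mitochondrial libraries by 0.16. Relative to that median, library totals left Fabp1 at -1.24, Fabp2 at -1.57 and Slc27a4 at -1.94, against -1.29, -1.45 and -1.75 with TMM. Genes called numbered 5100 (2575 higher, 2525 lower); with library totals 2763 (325 lower), at 0.01 2596 (1415 and 1181), and without single livers 2531 to 7647 (higher 1441 to 3991, lower 1090 to 3656). Without both richest mitochondrial libraries 3904 were higher.

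Same-numbered livers did not deviate together (r = -0.19, 0.11 and -0.20 over genes for numbers 1 to 3), and each Sirt5+/+ liver correlated best with another number. With the replicate block 1665 genes were lower, and Slc27a4 missed the threshold (-1.60, adjusted p = 0.0569).

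Fabp4 turned positive with library totals (0.94), upper-quartile factors (0.13), no filter (0.014), the stricter filter (0.0087), limma-voom (0.54), the block (0.32), mitochondrial genes removed (0.034) and both richest libraries left out (0.85), and ran from -0.46 to 0.95 without single livers. Slc27a1 did so with library totals (0.55), upper-quartile factors (0.19), no filter (0.046), the stricter filter (0.065), DESeq2 size factors (0.0018), DESeq2 (0.0025), the block (0.069) and the mitochondrial covariate (0.32), and ran from -0.25 to 0.30 without single livers. Fabp7 did so with library totals (0.26), upper-quartile factors (0.10) and the block (0.091), and ran from -0.41 to 0.69 without single livers; Fabp5 with library totals (0.42). Pparg turned negative with limma-voom (-0.036) and both richest libraries left out (-0.19), and ran from -0.10 to 0.22 without single livers. The cause was not tested.

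Of 598 comparisons for 30 other named genes, 557 kept direction and side of the threshold, 18 lost the call, 19 gained it and 4 reversed. Levels relative to hepatocyte markers kept their direction with albumin alone and a prior count of 0.5; scaling between libraries cancels in them almost by construction. With library totals Acsl1, Acsm1, Acsm5, Angptl4, Creb3l3, Dbi, Fitm2, Got2, Hnf4a, Lipc and Pex11a missed the threshold (adjusted p from 0.0577 to 0.458). Fabp7 had no value under the stricter filter.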

Other observations

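Lymphocyte markers rose where they passed the test. Of 10 T and NK cell markers 7 were higher and none lower in Sirt5-/- (4 without Sirt5-/- replicate 3). Of 7 B cell markers 2 were higher, Cd79a and Ighm (1 without any 1 Sirt5-/- liver). Of 2 tested neutrophil markers 1 was higher, the receptor gene Csf3r.

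Of 5 tested genes in the neural and glial list 4 rose, Mbp, Nes, Vim and Ncam1, which are also expressed outside the nervous system, while Gfap and Sox10 were too low to test. Of 4 tested adipocyte markers Lep was higher and Car3, which hepatocytes also express, lower. Of 5 tested intestinal markers Krt20 was higher and Apoa4, also a liver gene, lower. Of 3 tested muscle and heart markers Tnni3 was higher and Acta1 lower; with Sirt5+/+ replicate 2 left out none was lower. These genes were named after their values were seen.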
